A study of Mus musculus with 24 samples.

Results

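The genes described here are 48 mouse genes that copy chromosomal DNA, chosen by gene symbol from the 33846 genes of the deposited count table. The rule uses no measured value, but the list was drawn up with earlier results of these data known. They cover origin licensing (12 genes), helicase activation (7 genes), the replicative polymerases and primase (8 genes), the sliding clamp, clamp loader, single-strand binding protein and Okazaki fragment enzymes (11 genes), nucleotide supply (5 genes), and chromatin assembly with fork protection (5 genes). All 48 passed the filter on low counts. They were measured by stranded polyA RNA-seq in 24 libraries of retinal organoids, which are retina-like tissues grown from mouse embryonic stem cells (ESCs). The rotating-wall bioreactor (RWB), a slowly turning vessel, held optic cups cut from the organoids at D10 and was sampled at D18 (n = 2), D22 (n = 3) and D25 (n = 3). Dissected static suspension culture (SSCd) held cups cut at the same day in still dishes and was sampled at D18, D22 and D28 (n = 3 each). Intact static suspension culture (SSCi) held whole organoids and was sampled at D18 (n = 2), D25 (n = 2) and D32 (n = 3). D counts days of differentiation. All groups had been aggregated with Matrigel and kept in medium with N2 supplement, taurine, 9-cis retinal and insulin-like growth factor 1. RWB and SSCd received non-essential amino acids, B27 lacking vitamin A, and fetal bovine serum (2%) as of D18, but SSCi only as of D26, so culture method and medium differ together between the D25 groups of RWB and SSCi. The ESCs, called wild-type in the labels, were a clone derived from Nrl-GFP mice and the R1 clone, and the labels do not say which clone gave which library. RNA came from tissue homogenates, so each library averages all cells of its organoids, and the experiments repeated for a group are called biological replicates by the submitters.

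DNA replication begins at origins, where the origin recognition complex, CDC6 and CDT1 load the ring-shaped MCM helicase onto DNA. The helicase starts to unwind once CDC45 and the GINS complex join it, and polymerase alpha with primase, polymerase epsilon and polymerase delta then copy the strands behind it, held in place by the PCNA clamp. Retinal progenitor cells replicate their DNA in every cell cycle, whereas the rods and other neurons they give rise to have left the cycle, and many replication genes are transcribed as a cell enters S phase, under the E2F transcription factors.

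Sequences of the promoter regions are given first, because E2F proteins bind short words of a known form and 4 of these could be looked for directly. RefSeq sequences of GRCm38.p6, from 250 bases before to 50 bases after each annotated start of a gene, were matched by symbol to 39 of the 48 genes. Pole, Prim2, Gins4, Tipin, Gins1, Gins2, Rfc2, Gmnn and Mcm4 had no match. The words searched were TTTCCCGC, TTTGGCGC, TTTCGCGC and TTTGCCGC, on both strands and with overlapping matches counted. At least 1 word was present in 14 of the 39 replication genes (35.9%), against 704 of 27025 genes in the whole table (2.61%) and 522 of 12213 genes that were also tested for expression (4.27%). The 14 genes were Cdc6, Cdt1, Clspn, Gins3, Lig1, Mcm3, Mcm5, Mcm6, Mcm7, Orc1, Pola1, Pold1, Pole2 and Rfc3. Some genes had several starts, and a gene was counted if the window of any start held a word. For Lig1 and Mcm7 not every window did. A match describes the letters only and is not a measured binding site. The 250 bases before the start are printed for 5 genes, chosen after their values were seen: Mcm6 and Mcm5, whose RNA fell steeply and whose windows hold overlapping words, Pola1, with 1 word, and Rrm2 and Rpa1, among the steepest and the shallowest changes, with none. Each is written 5′ to 3′ on the gene's strand, and capitals mark the matched words.
Mcm6 (chr1:128359706-128359955, minus strand): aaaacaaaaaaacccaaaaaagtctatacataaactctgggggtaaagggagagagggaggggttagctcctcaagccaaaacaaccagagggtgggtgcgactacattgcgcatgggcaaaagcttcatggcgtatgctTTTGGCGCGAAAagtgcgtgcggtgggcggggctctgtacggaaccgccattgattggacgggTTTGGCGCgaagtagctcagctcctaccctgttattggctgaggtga
Mcm5 (chr8:75109259-75109508, plus strand): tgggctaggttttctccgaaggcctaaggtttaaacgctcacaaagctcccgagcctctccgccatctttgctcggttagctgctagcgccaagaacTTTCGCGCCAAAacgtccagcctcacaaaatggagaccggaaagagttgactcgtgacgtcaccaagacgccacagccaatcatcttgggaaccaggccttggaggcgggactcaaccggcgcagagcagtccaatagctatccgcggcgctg
Pola1 (chrX:93632156-93632405, minus strand): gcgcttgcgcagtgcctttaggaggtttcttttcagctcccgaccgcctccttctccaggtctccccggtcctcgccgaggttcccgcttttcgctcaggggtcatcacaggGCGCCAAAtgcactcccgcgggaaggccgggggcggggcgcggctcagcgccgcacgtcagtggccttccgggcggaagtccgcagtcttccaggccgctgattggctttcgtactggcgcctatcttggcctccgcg
Rrm2 (chr12:24708004-24708253, plus strand): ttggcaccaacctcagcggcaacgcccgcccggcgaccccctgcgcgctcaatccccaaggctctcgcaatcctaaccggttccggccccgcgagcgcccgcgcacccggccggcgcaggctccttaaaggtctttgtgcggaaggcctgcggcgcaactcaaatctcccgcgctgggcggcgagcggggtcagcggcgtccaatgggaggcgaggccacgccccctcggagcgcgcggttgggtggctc
Rpa1 (chr11:75348384-75348633, minus strand): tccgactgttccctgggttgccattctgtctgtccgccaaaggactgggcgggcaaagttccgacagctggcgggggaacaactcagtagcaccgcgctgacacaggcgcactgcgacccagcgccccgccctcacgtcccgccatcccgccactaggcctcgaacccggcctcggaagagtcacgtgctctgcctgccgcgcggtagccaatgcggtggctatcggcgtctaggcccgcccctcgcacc
In Mcm6, TTTGGCGC and GCGCGAAA, the reverse complement of TTTCGCGC, share bases and begin 110 and 106 bases before the start, and another TTTGGCGC begins 47 bases before it. In Mcm5, TTTCGCGC and GCGCCAAA overlap in the same way, beginning 153 and 149 bases before the start. Between SSCd D28 and D18, the 14 genes with a word had a median log2 fold change of -2.24 (range -4.05 to -1.44) and the 25 without one had a median of -1.99 (range -3.50 to -0.36), so the ranges overlapped. Among all tested genes, those with a word had a median of -0.24 and those without had a median of 0.02.

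The libraries held 13284632 to 21604446 estimated counts each. Mitochondrial transcripts took 10.2% of counts in RWB D22 replicate 1, 13.1% in RWB D25 replicate 1, 9.57% in SSCd D18 replicate 1 and 8.26% in SSCd D22 replicate 1, against 2.46% to 5.76% in the other 20 libraries. Summed mesenchyme markers reached 6743 CPM (the count of a gene scaled to the library total, with TMM factors) in SSCi D18 replicate 1 and 31.5 CPM in replicate 2. All other groups lay between 13.4 and 321 CPM for that sum. Pigment epithelium markers were the highest of their groups in the 4 libraries of high mitochondrial share, summing to 544 CPM in RWB D22 replicate 1, 1062 CPM in RWB D25 replicate 1, 393 CPM in SSCd D18 replicate 1 and 327 CPM in SSCd D22 replicate 1. The other libraries of those groups held 39.8 to 333 CPM of them, and all remaining groups held 15.1 to 362 CPM. Summed retinal progenitor markers ran between 656 and 3559.5 CPM over all 24 libraries and rod markers between 54.4 and 12436 CPM. Pluripotency markers summed to at most 22.4 CPM and blood and vessel markers to at most 4.49 CPM. Replicates within a group differed beyond counting noise, so no pair was treated as one library deposited again.

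RNA of the replication genes fell with time in all 3 cultures, to a median of 21.5% of the D18 level at D25 in RWB, 21.7% at D28 in SSCd and 22.7% at D32 in SSCi. The 48 genes summed to 4410.1 and 4179 CPM in RWB at D18, 2156, 2319.8 and 1835 CPM at D22, and 1329, 1132 and 935 CPM at D25. In SSCd the sums were 2925, 4227 and 2964 CPM at D18, 1583, 1651 and 1281 CPM at D22, and 870.4, 971 and 770.2 CPM at D28. In SSCi they were 2695 and 3567 CPM at D18, 1616 and 1527 CPM at D25, and 892, 799 and 842 CPM at D32. Within each culture the 3 days did not overlap in this sum. In homogenized tissue, fewer cells that replicate their DNA and less RNA per such cell cannot be told apart. Amino acids, B27 and serum were given as of D18 in RWB and SSCd and as of D26 in SSCi. Time in that medium therefore changed with the day, except between D18 and D25 in SSCi, and its part was not tested.

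**Figure D1:**
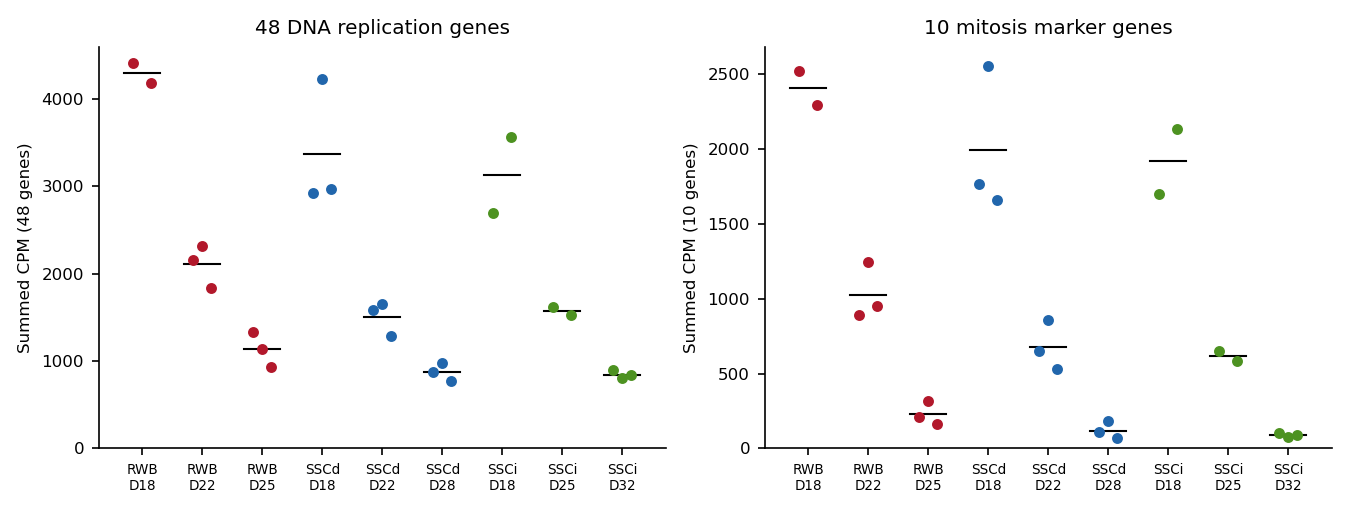
Summed CPM (y axis, from 0) of the 48 DNA replication genes (left) and of 10 mitosis markers (right) in each library (points), with the group mean (bar), by culture and day. Replication genes lie between 770 and 4410 CPM, and in each culture every library of a later day lies below every library of an earlier one.

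A gene was called changed at an adjusted p under 0.05 in edgeR's quasi-likelihood test, adjusted by the Benjamini-Hochberg method over 16792 genes. Between RWB D25 and D18, 46 of the 48 genes were lower and 0 higher, where 14.0% of all tested genes were lower, and their median log2 fold change was -2.22 against 0.06 for all genes. Between SSCd D28 and D18, 47 were lower and 0 higher, where 17.1% of all genes were lower, with a median of -2.20 against 0.02. Between SSCi D32 and D18, 44 were lower and 0 higher, where 20.5% of all genes were lower, with a median of -2.14 against -0.05. The same 44 genes were lower in all 3 cultures, and the share of all tested genes that were so was not counted. The exceptions among the 48 were Rpa1 in every culture, Rpa3 in RWB and SSCi, and Orc1 and Orc2 in SSCi. Leaving out single libraries gave between 38 and 48 genes over the 3 spans.

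**Figure D2:**
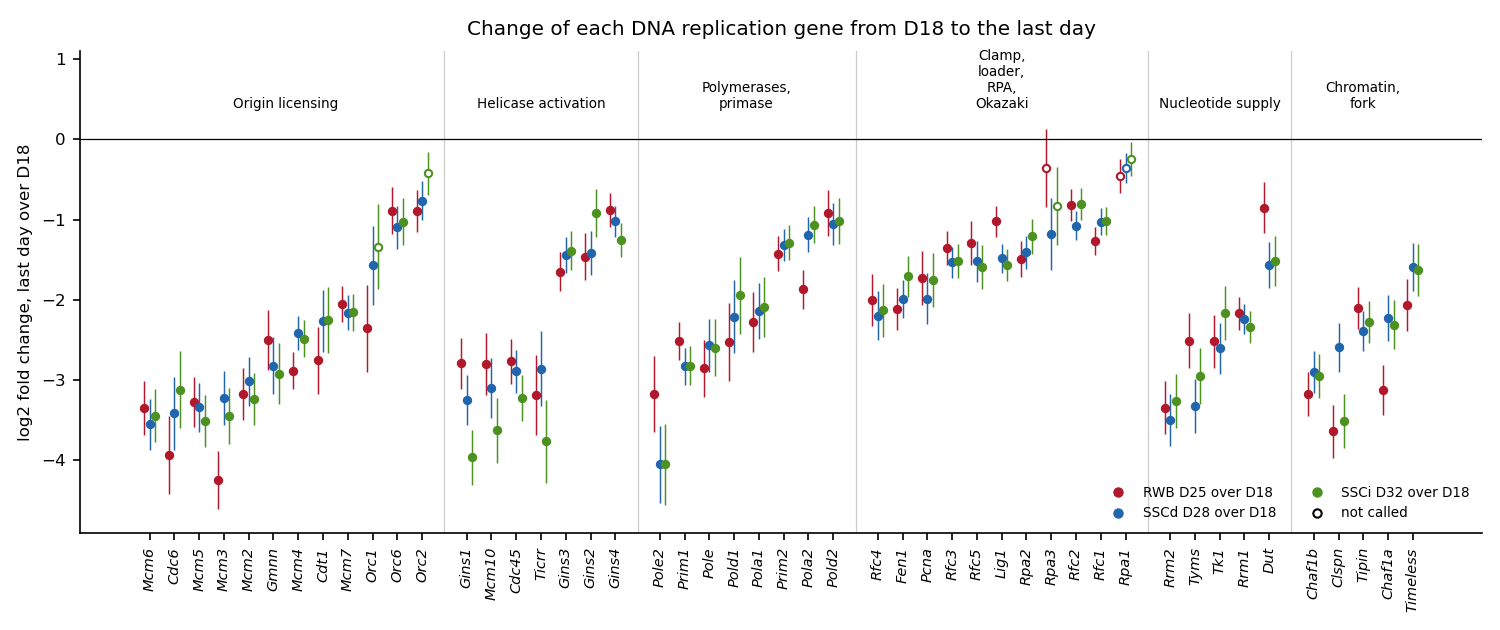
The log2 fold change of each of the 48 genes (x axis, grouped by role) from D18 to the last day in RWB (D25), SSCd (D28) and SSCi (D32); points are estimates, lines 1 SE, open points did not pass an adjusted p of 0.05. All estimates lie below 0, the lowest at -4.25 for Mcm3 in RWB.

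Of the genes of origin licensing, all 12 were lower in RWB (median log2 fold change -2.82) and in SSCd (-2.62), and 10 were lower in SSCi (-2.70). Mcm6, a subunit of the MCM helicase, had the largest change of the group in SSCd, and Orc2, a subunit of the origin recognition complex, had the smallest.
Mcm6 stood at 185 and 209 CPM in RWB at D18, 76.6, 73.4 and 63.4 CPM at D22 and 19.3, 22.5 and 16.3 CPM at D25. It stood at 118, 179 and 124 CPM in SSCd at D18, 43.1, 42.1 and 30.4 CPM at D22 and 11.98, 18.5 and 5.33 CPM at D28. It stood at 126 and 169 CPM in SSCi at D18, 63.5 and 51.4 CPM at D25 and 15.5, 10.98 and 14.2 CPM at D32. No library of a later day overlapped an earlier day in any culture. Over the whole span Mcm6 fell by 3.35 in RWB (SE 0.33, adjusted p = 5.47e-07), fell by 3.55 in SSCd (SE 0.32, adjusted p = 8.67e-08) and fell by 3.44 in SSCi (SE 0.33, adjusted p = 2.02e-07), all on the log2 scale.
Orc2 stood at 66.3 and 64.4 CPM in RWB at D18, 47.8, 44.6 and 31.2 CPM at D22 and 48.3, 33.8 and 23.7 CPM at D25. It stood at 59.6, 48.7 and 35.2 CPM in SSCd at D18, 39.03, 39.1 and 31.9 CPM at D22 and 28.8, 32.5 and 23.3 CPM at D28, and at 47.4 and 39.8 CPM in SSCi at D18, 39.5 and 26.3 CPM at D25 and 34.8, 30.8 and 31.9 CPM at D32. The last 2 days overlapped in every culture, as did D18 and D22 in SSCd, but every library of the last day lay below every library of D18. Between the last day and D18 the log2 fold change was -0.89 (SE 0.27, adjusted p = 0.0159) in RWB, -0.76 (SE 0.24, adjusted p = 0.0199) in SSCd and -0.42 (SE 0.27, adjusted p = 0.236) in SSCi. The call in RWB was lost without replicate 1 or 2 of D18 or replicate 3 of D25 (adjusted p up to 0.0939) and in a fit of D18 and D25 alone (adjusted p = 0.0948), and the call in SSCd without replicate 1 or 2 of D18 or replicate 3 of D28 (adjusted p up to 0.113) or without the 4 libraries of high mitochondrial share (adjusted p = 0.052).
Cdc6, a loader of the helicase, had log2 fold changes of -3.93 in RWB, -3.42 in SSCd and -3.12 in SSCi. Gmnn, which encodes geminin, the inhibitor of CDT1, was lower in all 3 cultures as well, at -2.50 in RWB, -2.82 in SSCd and -2.92 in SSCi. The MCM subunits did not stand at one level: per transcript length, at SSCd D18, Mcm7 had 175 ± 43.7 TPM (SD, n = 3), whereas Mcm2, Mcm3, Mcm4, Mcm5 and Mcm6 had means between 37.99 and 79.8 TPM. Orc1 was the lowest of all 48 on that scale, at 5.66 ± 1.61 TPM.

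All 7 genes of helicase activation were lower in each culture, with median log2 fold changes of -2.77 in RWB, -2.86 in SSCd and -3.22 in SSCi. Gins1 and Gins4 encode subunits of the same GINS complex, which rides with the MCM ring, yet had the largest and the smallest change of the group in SSCd.
Gins1 stood at 31.6 and 23.7 CPM in RWB at D18, 13.4, 14.5 and 10.2 CPM at D22 and 5.47, 4.05 and 2.51 CPM at D25. It stood at 22.7, 25.5 and 17.1 CPM in SSCd at D18, 8.34, 6.001 and 4.90 CPM at D22 and 1.88, 3.05 and 1.91 CPM at D28, and at 15.6 and 23.9 CPM in SSCi at D18, 6.13 and 6.19 CPM at D25 and 1.14, 1.19 and 1.46 CPM at D32. The days of each culture did not overlap. From D18 to the last day its log2 fold change was -2.79 (SE 0.32, adjusted p = 2.71e-06) in RWB, -3.25 (SE 0.31, adjusted p = 1.88e-07) in SSCd and -3.96 (SE 0.35, adjusted p = 6.02e-08) in SSCi.
Gins4 stood at 37.4 and 32.3 CPM in RWB at D18, 30.5, 28.99 and 22.6 CPM at D22 and 25.5, 16.4 and 14.9 CPM at D25. It stood at 39.9, 40.5 and 30.1 CPM in SSCd at D18, 28.97, 24.4 and 21.4 CPM at D22 and 17.7, 18.1 and 18.6 CPM at D28, and at 33.5 and 34.3 CPM in SSCi at D18, 17.5 and 17.5 CPM at D25 and 14.05, 14.7 and 14.1 CPM at D32. D22 and D25 overlapped in RWB; all other pairs of days within a culture were apart. Over the whole span the log2 fold change was -0.89 (SE 0.21, adjusted p = 0.00346) in RWB, where the call was lost without replicate 1 of D18 (adjusted p = 0.0668) and in a fit of D18 and D25 alone (adjusted p = 0.0913), -1.02 (SE 0.19, adjusted p = 0.000362) in SSCd and -1.25 (SE 0.21, adjusted p = 0.000114) in SSCi.
Ticrr, which encodes treslin, a factor needed to load CDC45, had log2 fold changes of -3.18 in RWB, -2.86 in SSCd and -3.76 in SSCi.

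All 8 polymerase and primase genes were lower in each culture, with medians of -2.39 in RWB, -2.18 in SSCd and -2.01 in SSCi. The extremes were both accessory subunits: Pole2 of polymerase epsilon, which copies the leading strand, and Pold2 of polymerase delta, which copies the lagging strand.
Pole2 stood at 23.97 and 21.8 CPM in RWB at D18, 7.31, 9.48 and 5.80 CPM at D22 and 3.81, 2.87 and 1.01 CPM at D25. It stood at 19.2, 19.3 and 13.5 CPM in SSCd at D18, 5.06, 5.68 and 2.73 CPM at D22 and 0.742, 1.61 and 0.752 CPM at D28, and at 14.3 and 18.2 CPM in SSCi at D18, 5.56 and 2.94 CPM at D25 and 1.33, 0.489 and 1.09 CPM at D32. The days did not overlap in any culture, and 11.2% of the D18 level was left at the last day in RWB, 5.98% in SSCd and 5.96% in SSCi. The log2 fold change was -3.17 (SE 0.47, adjusted p = 3.98e-05) in RWB, -4.05 (SE 0.48, adjusted p = 1.88e-06) in SSCd and -4.05 (SE 0.50, adjusted p = 3.37e-06) in SSCi.
Pold2 stood at 46.3 and 34.5 CPM in RWB at D18, 33.6, 28.8 and 27.4 CPM at D22 and 23.6, 25.04 and 15.7 CPM at D25. It stood at 30.2, 51.7 and 38.9 CPM in SSCd at D18, 38.4, 29.03 and 24.5 CPM at D22 and 20.3, 17.6 and 20.3 CPM at D28, and at 27.1 and 46.7 CPM in SSCi at D18, 24.3 and 43.9 CPM at D25 and 17.5, 16.3 and 20.9 CPM at D32. The middle day overlapped D18 in SSCd and SSCi, and the last day lay below D18 in all 3. From D18 to the last day its log2 fold change was -0.92 (SE 0.29, adjusted p = 0.0222) in RWB, -1.05 (SE 0.27, adjusted p = 0.00423) in SSCd and -1.02 (SE 0.29, adjusted p = 0.00945) in SSCi. Its call was lost in RWB without replicate 1 of D18 (adjusted p = 0.229) or replicate 3 of D25 (adjusted p = 0.0881) and in a fit of D18 and D25 alone (adjusted p = 0.0792), and in SSCi without replicate 2 of D18, where the log2 fold change became -0.52.

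The clamp, loader, single-strand binding and Okazaki fragment genes had the smallest median change of the 6 roles in every culture. Of 11 genes, 9 were lower in RWB (median log2 fold change -1.29), 10 in SSCd (-1.48) and 9 in SSCi (-1.51), and the median share of the D18 level left at the last day was 40.9% in RWB, 35.8% in SSCd and 35.04% in SSCi, against 21.5%, 21.7% and 22.7% over all 48 genes in those cultures. Rfc4, a subunit of replication factor C, which opens the clamp, changed most in SSCd, and Rpa1, the large subunit of the protein that coats single-stranded DNA, changed least.
Rfc4 stood at 58.2 and 55.7 CPM in RWB at D18, 33.4, 36.9 and 23.1 CPM at D22 and 22.2, 11.6 and 8.97 CPM at D25. It stood at 71.5, 61.8 and 36.7 CPM in SSCd at D18, 31.4, 31.2 and 19.01 CPM at D22 and 11.98, 14.2 and 10.9 CPM at D28, and at 41.5 and 47.3 CPM in SSCi at D18, 19.4 and 16.1 CPM at D25 and 9.18, 12.1 and 9.17 CPM at D32. The days did not overlap. Over the whole span the log2 fold change was -2.003 (SE 0.33, adjusted p = 0.000111) in RWB, -2.20 (SE 0.31, adjusted p = 1.5e-05) in SSCd and -2.13 (SE 0.33, adjusted p = 4.38e-05) in SSCi.
Rpa1 stood at 114 and 109 CPM in RWB at D18, 99.3, 78.1 and 75.3 CPM at D22 and 103, 66.3 and 74.8 CPM at D25. It stood at 66.6, 101 and 77.1 CPM in SSCd at D18, 70.7, 49.2 and 52.97 CPM at D22 and 65.2, 57.9 and 68.1 CPM at D28, and at 71.1 and 86.1 CPM in SSCi at D18, 62.3 and 63.5 CPM at D25 and 76.4, 62.4 and 60.6 CPM at D32. The last day overlapped D18 in SSCd and SSCi and lay just below it in RWB, and none of the 3 log2 fold changes passed the test: -0.46 (SE 0.21, adjusted p = 0.114) in RWB, -0.36 (SE 0.19, adjusted p = 0.158) in SSCd and -0.24 (SE 0.21, adjusted p = 0.399) in SSCi.
Rpa3, the small subunit of the same protein, stood at 52.1 and 37.8 CPM in RWB at D18, 63.6, 42.7 and 27.7 CPM at D22 and 66.5, 25.1 and 13.8 CPM at D25. It stood at 78.5, 43.4 and 31.1 CPM in SSCd at D18, 53.1, 40.8 and 23.5 CPM at D22 and 20.6, 28.2 and 18.9 CPM at D28, and at 30.4 and 36.2 CPM in SSCi at D18, 25.5 and 19.1 CPM at D25 and 19.5, 17.9 and 18.7 CPM at D32. The 4 libraries of high mitochondrial share held 53.1 to 78.5 CPM of Rpa3 and the other 20 held 13.8 to 52.1 CPM, so its 4 highest values were those of replicate 1 in RWB D22, RWB D25, SSCd D18 and SSCd D22, which also held the most pigment epithelium RNA of their groups. The part of either in the Rpa3 level was not tested. Rpa3 passed the test between SSCd D28 and D18, with a log2 fold change of -1.18 (SE 0.45, adjusted p = 0.0471). That call was lost without the 4 libraries (log2 fold change -0.75, adjusted p = 0.0595), without SSCd D18 replicate 1 (log2 fold change -0.73, adjusted p = 0.256), and without SSCd D18 replicate 2 or any 1 of the D28 libraries (adjusted p up to 0.136). Pcna, the clamp itself, had the highest level per transcript length of the 48 genes, at 402 ± 82.8 TPM at SSCd D18 (SD, n = 3), and its log2 fold change was -1.73 in RWB, -1.98 in SSCd and -1.75 in SSCi.

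All 5 genes of nucleotide supply were lower in each culture, with medians of -2.51 in RWB, -2.60 in SSCd and -2.34 in SSCi. Rrm2, the small subunit of ribonucleotide reductase, changed most in SSCd and Dut, which breaks down dUTP, changed least.
Rrm2 stood at 114 and 154 CPM in RWB at D18, 41.5, 47.3 and 46.6 CPM at D22 and 13.01, 16.1 and 10.6 CPM at D25. It stood at 80.7, 120.3 and 70.9 CPM in SSCd at D18, 37.1, 40.8 and 31.2 CPM at D22 and 6.84, 12.9 and 4.17 CPM at D28, and at 93.4 and 114 CPM in SSCi at D18, 51.3 and 40.8 CPM at D25 and 12.8, 8.11 and 11.4 CPM at D32. The days did not overlap. Between the last day and D18 the log2 fold change was -3.34 (SE 0.33, adjusted p = 5.9e-07) in RWB, -3.50 (SE 0.32, adjusted p = 1.1e-07) in SSCd and -3.26 (SE 0.34, adjusted p = 3.81e-07) in SSCi.
Dut stood at 96.9 and 93.4 CPM in RWB at D18, 91.1, 64.5 and 51.4 CPM at D22 and 82.1, 40.9 and 35.7 CPM at D25. It stood at 91.4, 99.2 and 62.5 CPM in SSCd at D18, 62.6, 42.4 and 33.9 CPM at D22 and 28.7, 33.4 and 23.4 CPM at D28, and at 74.5 and 87.5 CPM in SSCi at D18, 42.1 and 36.8 CPM at D25 and 30.4, 26.7 and 27.9 CPM at D32. Replicate 1 was the highest of its group in RWB D22, RWB D25 and SSCd D22, which are libraries of high mitochondrial share, and D22 overlapped D25 in RWB and D18 in SSCd. The log2 fold change was -0.85 (SE 0.31, adjusted p = 0.047) in RWB, -1.56 (SE 0.29, adjusted p = 0.000292) in SSCd and -1.52 (SE 0.31, adjusted p = 0.000771) in SSCi, and the call in RWB was lost without replicate 1 or 2 of D18 or replicate 2 or 3 of D25 (adjusted p up to 0.191) and in a fit of D18 and D25 alone (adjusted p = 0.149).

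All 5 genes of chromatin assembly and fork protection were lower in each culture, with medians of -3.12 in RWB, -2.39 in SSCd and -2.31 in SSCi. Chaf1b, a subunit of chromatin assembly factor CAF-1, changed most in SSCd, and Timeless, part of the fork protection complex, changed least.
Chaf1b stood at 34.5 and 39.7 CPM in RWB at D18, 10.4, 13.4 and 13.7 CPM at D22 and 4.996, 3.43 and 3.90 CPM at D25. It stood at 23.3, 34.4 and 23.3 CPM in SSCd at D18, 8.12, 8.68 and 8.01 CPM at D22 and 3.82, 4.66 and 2.32 CPM at D28, and at 20.4 and 30.7 CPM in SSCi at D18, 12.5 and 12.6 CPM at D25 and 3.73, 3.15 and 2.98 CPM at D32. The days did not overlap. Over the whole span the log2 fold change was -3.18 (SE 0.27, adjusted p = 1.21e-07) in RWB, -2.90 (SE 0.26, adjusted p = 7.44e-08) in SSCd and -2.95 (SE 0.27, adjusted p = 1.14e-07) in SSCi.
Timeless stood at 46.01 and 47.5 CPM in RWB at D18, 13.5, 21.1 and 17.8 CPM at D22 and 9.75, 10.7 and 13.1 CPM at D25. It stood at 23.5, 35.2 and 37.7 CPM in SSCd at D18, 11.2, 12.4 and 11.6 CPM at D22 and 6.62, 11.5 and 14.01 CPM at D28, and at 21.4 and 38.7 CPM in SSCi at D18, 17.6 and 13.1 CPM at D25 and 10.6, 12.2 and 6.33 CPM at D32. The last day lay below D18 in every culture and overlapped D22 in SSCd. Between the last day and D18 the log2 fold change was -2.06 (SE 0.32, adjusted p = 6.8e-05) in RWB, -1.59 (SE 0.30, adjusted p = 0.000322) in SSCd and -1.62 (SE 0.32, adjusted p = 0.000515) in SSCi.

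The order of the 48 genes by size of change was similar in the 3 cultures. Pole2, Mcm6, Mcm3, Mcm5 and Rrm2 had the lowest mean rank of log2 fold change over the 3 spans, and Rpa1, Orc2, Rfc2 and Rpa3 the highest, followed by Pold2 and Gins4 at the same mean rank. Across genes, the spans of RWB and SSCd had a Pearson r of 0.89 (Spearman rho 0.91), those of RWB and SSCi 0.88 (rho 0.90) and those of SSCd and SSCi 0.96 (rho 0.96), over 48 genes that share their libraries and are not independent replicates. Mcm3 in RWB kept the least of its D18 level of any gene and culture, 5.24%.

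The fall was already under way at the middle day. Between RWB D22 and D18, 31 of the 48 genes were lower, where 4.88% of all genes were lower, with a median log2 fold change of -1.08, and the count was 18 without RWB D18 replicate 1 and 9 without replicate 2. Between RWB D25 and D22, 25 were lower, where 3.23% of all genes were lower, with a median of -1.11, and 10 in a fit of those groups alone. Between SSCd D22 and D18, 39 were lower (5.13% of all genes; median -1.21), and between SSCd D28 and D22, 21 were lower (5.05% of all genes; median -0.85). In SSCd, 39 of the 48 genes had the larger estimated fall in the first step, against 25 in RWB and 25 in SSCi. Both steps of a culture share the libraries of its middle day, so these counts depend on those libraries. Between SSCi D25 and D18, 27 were lower, where 10.9% of all genes were lower, with a median of -1.01. That count was 9 without SSCi D18 replicate 2, 11 without SSCi D25 replicate 1, 6 without SSCi D25 replicate 2, and 16 in a fit of those groups alone. Between SSCi D32 and D25, 26 were lower (4.54% of all genes; median -1.09). The steps differ in length between cultures, and no gene was higher at a later day in any of the 9 comparisons over time.

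Lig1, DNA ligase I, which seals Okazaki fragments, had like levels in RWB at D22 and D25 and is described for that reason, chosen after its values were seen. It stood at 117 and 145 CPM in RWB at D18, 61.9, 59.6 and 69.6 CPM at D22 and 70.8, 66.1 and 56.9 CPM at D25. It stood at 76.3, 126 and 104 CPM in SSCd at D18, 50.1, 47.5 and 51.95 CPM at D22 and 28.7, 38.5 and 42.7 CPM at D28, and at 97.5 and 111 CPM in SSCi at D18, 74.3 and 74.8 CPM at D25 and 38.2, 35.5 and 31.9 CPM at D32. RWB libraries of D22 and D25 overlapped, with a log2 fold change of 0.02 (SE 0.18, adjusted p = 0.968). Between SSCd D28 and D22 the groups did not overlap, but the log2 fold change of -0.44 (SE 0.18, adjusted p = 0.136) did not pass the test. Between SSCi D32 and D25 the groups did not overlap and the log2 fold change was -1.08 (SE 0.19, adjusted p = 0.00125). These steps differ in length, and whether the cultures differ in them was not tested.

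Markers of dividing cells and of rods moved over the same days. All 10 mitosis markers were lower at the last day than at D18 in each culture (medians -3.35 in RWB, -4.00 in SSCd and -4.20 in SSCi), among them the cyclin gene Ccnb1, at -3.38 in RWB, -4.28 in SSCd and -4.81 in SSCi. The summed CPM of the 48 replication genes was 1.75 to 1.82 times that of the mitosis markers in RWB at D18, 1.87 to 2.43 times at D22 and 3.60 to 6.26 times at D25. It was 1.65 to 1.78 times in SSCd at D18, 1.92 to 2.44 times at D22 and 5.29 to 11.6 times at D28, and 1.59 to 1.67 times in SSCi at D18, 2.47 to 2.61 times at D25 and 8.66 to 10.7 times at D32. The ratio to the mitosis markers was higher in every library of the last days than in any library of D18. The ratio to the summed progenitor markers showed no such increase: it was 1.89 to 2.12 in RWB at D18 and 0.942 to 2.03 at D25, 1.21 to 1.84 in SSCd at D18 and 0.692 to 1.32 at D28, and 1.002 to 1.17 in SSCi at D18 and 0.960 to 1.01 at D32. All 10 rod markers were higher at the last day in each culture, with sums of 54.4 to 82.2, 1711 to 2767 and 3736 to 4478 CPM in RWB at D18, D22 and D25. The rod sums were 112 to 204, 2505 to 7373 and 4362 to 12436 CPM in SSCd at D18, D22 and D28, and 80.9 to 116, 4499 to 4679 and 9711 to 12201 CPM in SSCi at D18, D25 and D32. Of 12 progenitor markers, 10 were lower in RWB, 11 in SSCd and 9 in SSCi over these spans. Of 8 glia markers, 6 were higher in RWB, 5 in SSCd and 5 in SSCi, and Dkk3 was lower in each, where 2508 of 16792 genes were higher in RWB, 2944 in SSCd and 2721 in SSCi. Their summed level did not increase: it was 1024 to 1175 CPM in RWB at D18 and 719 to 1114 CPM at D25, 1085 to 1288 CPM in SSCd at D18 and 781 to 879.6 CPM at D28, and 1443 to 1675 CPM in SSCi at D18 and 1221 to 1265 CPM at D32. No marker of the mitosis, progenitor or rod lists was at 0 in any group. The part of a changing mixture of cells in the fall of the replication genes was not tested.

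At D22, 3 replication genes were higher in RWB than in SSCd, which both held dissected cups in the same medium, and most others had estimates in that direction. Those that passed the test were Mcm5, Tyms and Prim1, 3 of 48 genes, where 0.405% of all genes were higher, and none was lower. The median log2 fold change over the 48 genes was 0.43 against -0.003 for all genes, 46 of 48 estimates were above 0 (Pola2 and Pold2 were below), and 21 genes had every RWB library above every SSCd library, as 7.34% of all genes did.
In GRCm38, Mcm5 lies at chr8:75109569-75128439 (plus strand), Tyms at chr5:30058202-30073617 (minus strand) and Prim1 at chr10:128015168-128030037 (plus strand).
Mcm5, a helicase subunit, stood at 60.7, 66.2 and 65.00 CPM in RWB at D22, against 30.02, 30.1 and 25.1 CPM in SSCd at D22. The groups were far apart relative to their spread, with a log2 fold change of 1.17 (SE 0.28, adjusted p = 0.0343). Tyms, thymidylate synthase, stood at 128, 120.3 and 68.99 CPM in RWB at D22, against 56.3, 46.8 and 27.6 CPM in SSCd at D22, with a log2 fold change of 1.28 (SE 0.31, adjusted p = 0.0385). Replicate 3 was the lowest of both groups, and the highest SSCd library lay below it in RWB. Prim1, the catalytic subunit of primase, stood at 34.7, 41.3 and 25.8 CPM in RWB at D22, against 17.6, 21.7 and 16.8 CPM in SSCd at D22, with a log2 fold change of 0.86 (SE 0.21, adjusted p = 0.041). These groups did not overlap either, with replicate 2 the highest and replicate 3 the lowest of each.
With the replicate number as a block over all 24 libraries, 5 genes were higher, Gins1 and Rrm1 being added. The check of pairing held for these 2 groups but not for most other pairs of groups in that fit. Groups of 2 libraries could not meet it. In a fit of the 2 groups alone only Mcm5 was called, without the 4 libraries of high mitochondrial share 0 were, and leaving out 1 library gave 2 genes (without RWB D22 replicate 3) or 0 (without any other library of the groups). Under these and the other alternatives the log2 fold change lay between 1.09 and 1.27 for Mcm5, between 1.04 and 1.51 for Tyms and between 0.69 and 1.02 for Prim1.
Of 10 mitosis markers 0 passed edgeR's test here, with 3 at an unadjusted p under 0.05 and a median log2 fold change of 0.50. Rod markers summed to 1711 to 2767 CPM in RWB at D22, against 2505 to 7373 CPM in SSCd at D22, and 2 of 10, Pde6b (-2.51) and Prph2 (-1.72), were lower. Surface epithelium markers summed to 8.19 to 24.7 CPM in RWB at D22, against 40.8 to 66.96 CPM in SSCd at D22, with Krt14 and Trp63 at 0 in both groups and Krt18 lower (-2.54). The part of these cell types in the difference was not tested.

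**Figure D3:**
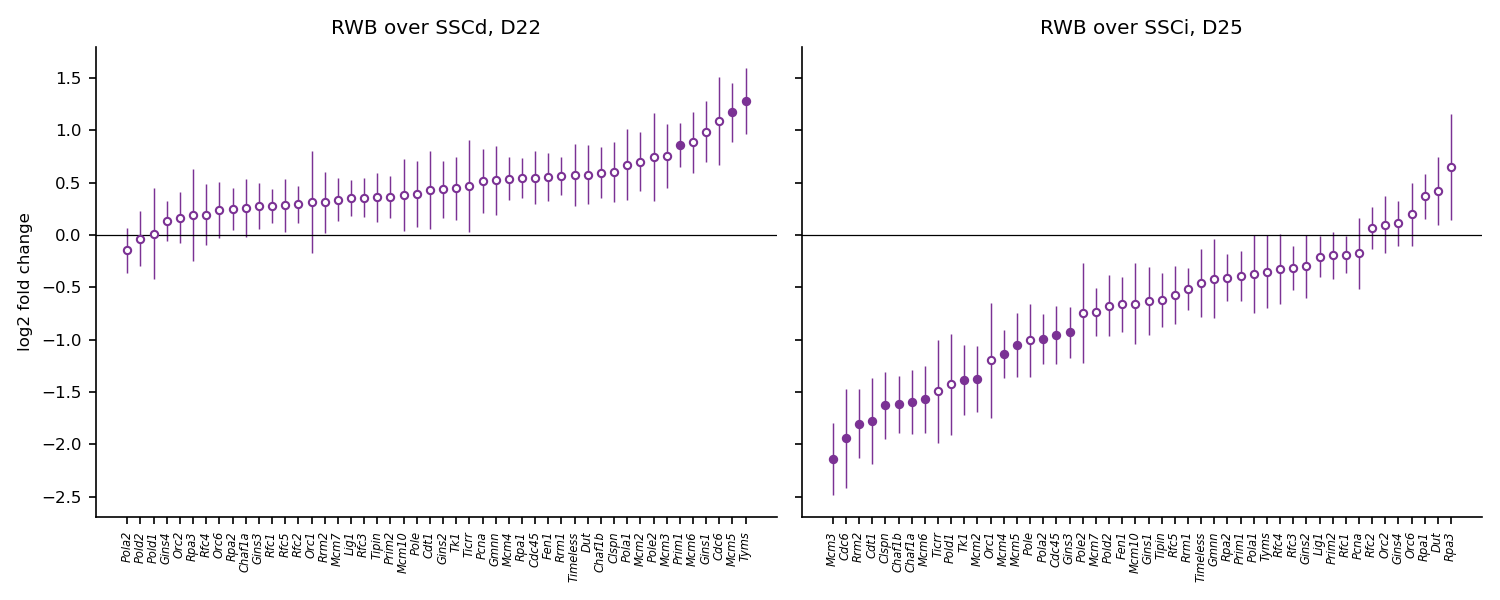
The log2 fold change of each of the 48 genes for RWB over SSCd at D22 (left) and RWB over SSCi at D25 (right), sorted by size; points are estimates, lines 1 SE, filled points passed an adjusted p of 0.05. On the left 46 estimates lie above 0 and 3 are filled; on the right 41 lie below 0 and 15 are filled.

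At D18 the same direction was seen with no gene called. Between RWB and SSCd at D18, 0 of 48 genes passed edgeR's test in either direction (0.488% of all genes did), 3 had an unadjusted p under 0.05, and DESeq2 also called 0. The median log2 fold change was 0.35, 45 estimates were above 0, and 12 genes had every RWB library above every SSCd library, as 12.0% of all genes did. Leaving out 1 library moved this median between 0.24 and 0.50 and the number of estimates above 0 between 37 and 47. The share of all genes above 0 at D18 is not given here. The genes with an unadjusted p under 0.05 were Mcm4 (0.63), Mcm5 (0.67) and Rpa1 (0.45). Without SSCd D18 replicate 2, the SSCd library with the highest replication sum, Mcm4 was called. Mean levels were higher in RWB at both D18 and D22 for 43 of the 48 genes. These genes share their libraries, and the share of all genes with that order was not counted. The replication sums overlapped at D18, with SSCd replicate 2 at 4227 CPM and RWB replicate 2 at 4179 CPM. Rod markers summed to 54.4 to 82.2 CPM in RWB at D18, against 112 to 204 CPM in SSCd at D18, with 2 of 10 lower. Surface epithelium markers summed to 14.3 to 22.6 CPM in RWB at D18, against 30.95 to 41.03 CPM in SSCd at D18, with none of 4 tested markers called and Krt5 and Krt14 at 0 in both groups. Neither sum overlapped between the groups, and the part of these cells was not tested. The change from D18 to D22 itself was not found to differ between RWB and SSCd: 0 of 48 genes passed edgeR's test of the difference (0% of all genes did), 0 had an unadjusted p under 0.05, DESeq2 called 0, and the median difference was 0.16 on the log2 scale. Without SSCd D18 replicate 2 this median was -0.04, with 17 of 48 estimates above 0, and leaving out any other 1 library of the 4 groups gave 0.06 to 0.26.
Between RWB and SSCi at D18, 0 of 48 genes passed in either direction (5.23% of all genes did), 5 had an unadjusted p under 0.05 (Tyms, Mcm5, Rfc2, Prim1 and Rpa1), and DESeq2 called 0. All 48 estimates were above 0, with a median of 0.42, and 33 genes had both RWB libraries above both SSCi libraries, as 21.3% of all genes did. Leaving out 1 library moved the median between 0.25 and 0.63 and the number of estimates above 0 between 42 and 48. SSCi D18 replicate 1, with its 6743 CPM of mesenchyme markers, had the lower replication sum of its pair, and the part of these cells was not tested. Between SSCd and SSCi at D18, 0 of 48 genes passed (3.86% of all genes did), 0 had an unadjusted p under 0.05, DESeq2 called 0, and the median log2 fold change was 0.08. Leaving out 1 library moved that median between -0.14 and 0.30 and the number of estimates above 0 between 13 and 47. The median was -0.14 without SSCd D18 replicate 2, -0.10 without SSCi D18 replicate 1 and 0.30 without SSCi D18 replicate 2, so it gave no stable direction.
Tyms illustrates the levels over all groups. It stood at 209.8 and 159 CPM in RWB at D18 and 48.1, 28.5 and 20.7 CPM at D25, at 132, 166 and 90.7 CPM in SSCd at D18 and 12.8, 15.1 and 10.9 CPM at D28, and at 71.6 and 102 CPM in SSCi at D18, 46.7 and 35.7 CPM at D25 and 11.1, 10.4 and 12.2 CPM at D32. Both RWB libraries of D18 lay above both SSCi libraries of D18 but overlapped SSCd at D18.

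**Figure D4:**
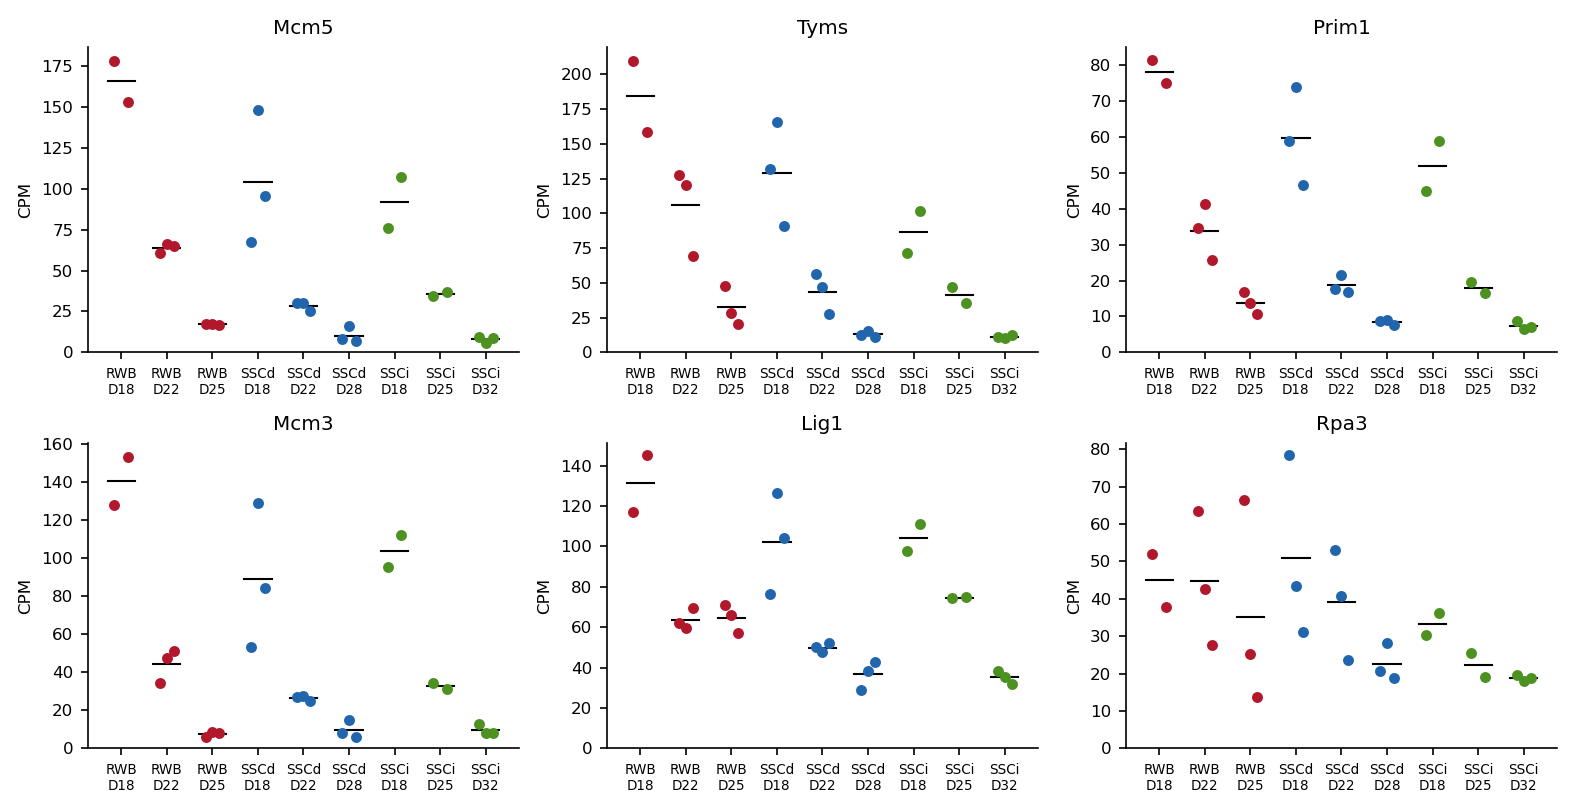
CPM (y axes, from 0) of Mcm5, Tyms, Prim1, Mcm3, Lig1 and Rpa3 in each library (points), with the group mean (bar), by culture and day. Mcm5, Tyms and Prim1 are higher in RWB than in SSCd at D22, Mcm3 is lower in RWB than in SSCi at D25, Lig1 stays level in RWB between D22 and D25, and Rpa3 spreads widely within RWB and SSCd groups.

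At D25 the direction was the opposite against SSCi, where medium and dissection differ as well and cannot be told apart from rotation. In RWB at D25, 15 of 48 genes were lower and 0 higher than in SSCi at D25, where 5.08% of all genes were lower. The median log2 fold change was -0.64 against 0.04 for all genes, 41 estimates were below 0, and 28 genes had every RWB library below both SSCi libraries, as 19.6% of all genes did. The called genes were 7 of 12 for licensing (Mcm2, Mcm3, Mcm4, Mcm5, Mcm6, Cdc6 and Cdt1), 3 of 5 for chromatin and fork (Chaf1a, Chaf1b and Clspn), 2 of 5 for nucleotide supply (Rrm2 and Tk1), 2 of 7 for helicase activation (Cdc45 and Gins3), 1 of 8 for polymerases (Pola2) and 0 of 11 for the clamp group, where 1 gene had an unadjusted p under 0.05 and the median was -0.21.
Mcm3, a helicase subunit, stood at 5.79, 8.35 and 7.96 CPM in RWB at D25, against 34.2 and 31.1 CPM in SSCi at D25. The groups were far apart, with a log2 fold change of -2.14 (SE 0.35, adjusted p = 0.000832). Chaf1b stood at 4.996, 3.43 and 3.90 CPM in RWB at D25, against 12.5 and 12.6 CPM in SSCi at D25, with a log2 fold change of -1.62 (SE 0.27, adjusted p = 0.00109). Rrm2 stood at 13.01, 16.1 and 10.6 CPM in RWB at D25, against 51.3 and 40.8 CPM in SSCi at D25, with a log2 fold change of -1.80 (SE 0.33, adjusted p = 0.00217). Pcna, the clamp, stood at 166, 98.5 and 71.4 CPM in RWB at D25, against 136 and 116 CPM in SSCi at D25, and the groups overlapped.
The count of 15 was 8 without RWB D25 replicate 1, 6 without SSCi D25 replicate 2, and 2 (Mcm3 and Rrm2) in a fit of the 2 groups alone. Mitosis markers summed to 159.7 to 315 CPM in RWB at D25, against 585 to 654 CPM in SSCi at D25, with 8 of 10 lower, Plk1 (-1.99) and Aurkb (-2.10) among them. Progenitor markers summed to 656 to 993 CPM in RWB at D25, against 1199.7 to 1684 CPM in SSCi at D25, with 7 of 12 lower. Rod markers summed to 3736 to 4478 CPM in RWB at D25, against 4499 to 4679 CPM in SSCi at D25, with Gnat1 higher (3.07). Surface epithelium markers summed to 8.28 to 9.88 CPM in RWB at D25, against 45.01 to 50.8 CPM in SSCi at D25, with 3 of 4 tested markers lower and Krt5 and Krt14 at 0 in both groups. Pigment epithelium markers summed to 51.1 to 1062 CPM in RWB at D25, against 34.5 to 35.8 CPM in SSCi at D25, and mesenchyme markers summed to 21.4 to 72.2 CPM in RWB at D25, against 14.1 to 18.9 CPM in SSCi at D25. Both sums were higher in RWB without overlap, and 0 of 6 pigment and 0 of 10 mesenchyme markers passed edgeR's test (1 and 0 at an unadjusted p under 0.05). No mitosis, progenitor or rod marker was at 0 in either group, and the part of these cells in the difference was not tested.
The change from D18 to D25 also differed between RWB and SSCi. A test of the difference found a larger fall in RWB for 10 of 48 genes and a smaller one for 0, where 1.16% of all genes had a larger fall. They were Mcm2, Mcm3, Mcm4, Mcm5, Mcm6, Cdc6, Rrm2, Chaf1a, Chaf1b and Clspn, and Mcm3 had a difference of -2.58 (SE 0.51, adjusted p = 0.0164). RWB and SSCi each contribute only 2 libraries at D18, and the count was 0 without RWB D18 replicate 2, SSCi D18 replicate 1 or SSCi D25 replicate 2, 1 to 5 without RWB D18 replicate 1, RWB D25 replicate 1 or SSCi D25 replicate 1, 16 without SSCi D18 replicate 2, 6 without the 4 libraries of high mitochondrial share, and 0 in a fit of the 4 groups alone.

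The last days of the dissected cultures were 3 days apart, and few replication genes passed the test between them. In RWB at D25, Lig1 and Tyms, 2 of 48 genes, were higher than in SSCd at D28, where 1.11% of all genes were higher, and none was lower. The median log2 fold change was 0.29 and 40 estimates were above 0. Lig1 stood at 70.8, 66.1 and 56.9 CPM in RWB at D25, against 28.7, 38.5 and 42.7 CPM in SSCd at D28, with a log2 fold change of 0.82 (SE 0.18, adjusted p = 0.0133). Tyms stood at 48.1, 28.5 and 20.7 CPM in RWB at D25, against 12.8, 15.1 and 10.9 CPM in SSCd at D28, with a log2 fold change of 1.32 (SE 0.32, adjusted p = 0.0274). Neither gene overlapped between the groups, and RWB replicate 1, of high mitochondrial share, was the highest library for both. That library also held 1062 CPM of pigment epithelium markers, which summed to 51.1 to 1062 CPM in RWB at D25, against 44.5 to 316 CPM in SSCd at D28. Mitosis markers summed to 159.7 to 315 CPM in RWB at D25, against 66.1 to 184 CPM in SSCd at D28, with 1 of 10 higher. Rod markers summed to 3736 to 4478 CPM in RWB at D25, against 4362 to 12436 CPM in SSCd at D28, with 2 of 10 lower. Surface epithelium markers summed to 8.28 to 9.88 CPM in RWB at D25, against 41.02 to 49.8 CPM in SSCd at D28, with 2 of 4 tested markers lower and Krt14 at 0 in both groups. The part of these cells in the difference was not tested. No gene was called without RWB D25 replicate 1, without SSCd D28 replicate 1 or in a fit of the 2 groups alone, 1 (Lig1) without SSCd D28 replicate 3 or without the 4 libraries of high mitochondrial share, 3 (Mcm5, Lig1 and Rrm2) without SSCd D28 replicate 2, and 5 without RWB D25 replicate 3.

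Other genes of replication and of S-phase control moved the same way over time. Of 41 further replication genes (among them the origin-firing kinase, further polymerase subunits, topoisomerases, RNase H2 and histone chaperones), 27 were lower in RWB, 31 in SSCd and 26 in SSCi over the whole spans, and 0 were higher, with median log2 fold changes of -0.999 in RWB, -0.90 in SSCd and -0.98 in SSCi. Dbf4, the activating subunit of the kinase that fires origins, had log2 fold changes of -2.85 in RWB, -3.11 in SSCd and -3.24 in SSCi, and Asf1b, a histone chaperone, had -3.14 in SSCd and -2.95 in SSCi. In RWB, Wdhd1, a fork factor that binds polymerase alpha, was at -2.73. Pold4, the small accessory subunit of polymerase delta, was lower in RWB than in SSCd at D22 (-1.08) and at D18 (-1.35), against the direction of the 48 genes there. It was also lower in RWB than in SSCi at D18 (-1.40).
Of 18 genes of E2F and S-phase control, 13 were lower in RWB, 14 in SSCd and 12 in SSCi. Cdk2, the kinase that drives S phase, had log2 fold changes of -2.86 in RWB, -2.79 in SSCd and -2.88 in SSCi. Cdc25a, a phosphatase that activates it, was at -2.15 in RWB, and Skp2, part of a ubiquitin ligase, was at -1.97 in SSCd and -2.02 in SSCi. Rbl2, which encodes the pocket protein p130 of resting cells, was higher in RWB (0.96), SSCd (0.76) and SSCi (0.95), and E2f3 was higher in SSCd (1.45). In RWB at D25 against SSCi at D25, 7 of the 18 were lower, with E2f1 at -2.41 and E2f8 at -2.38, as were 9 of the 41 further replication genes, with Uhrf1 at -2.54 and Wdhd1 at -1.25. In RWB at D25 against SSCd at D28, Asf1b (0.97) and E2f6 (0.65) were higher.

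The transcript table gives an estimate for each isoform. Transcripts annotated as retaining an intron, which are not translated into the full protein, were present for 34 of the 48 genes with a mean transcript total of at least 50 counts, a description and a minimum chosen after the values were seen. Their share of the gene's RNA was above D18 in every library of the last day for 10 of the 34 genes in RWB (29.4%), where 17.3% of 6339 genes with such transcripts were, for 12 in SSCd (35.3%), where 13.6% of all were, and for 9 in SSCi (26.5%), near the 24% of all genes. Every library of the last day was below D18 for 2 of the 34 in RWB, 1 in SSCd and 4 in SSCi. Those are 5.88%, 2.94% and 11.8% of the 34, against 6.22%, 5.95% and 11.5% of all genes. The mean share was higher at the last day for 64.7% of the 34 genes in RWB against 60.9% of all genes, 67.6% in SSCd against 58.3% and 67.6% in SSCi against 59.7%. Cdt1, Pola1, Chaf1b, Prim2, Rrm1 and Gins2 were above D18 in every library of the last day in all 3 cultures. How many of all genes were so in all 3 was not counted, so these genes serve as examples only. The retained-intron share of Cdt1 averaged 16.9% at D18, 20.4% at D22 and 55.3% at D25 in RWB, 25.3% at D18, 31.3% at D22 and 47.95% at D28 in SSCd and 23.2% at D18, 22.95% at D25 and 50.4% at D32 in SSCi. That of Chaf1b averaged 7.83% at D18, 11.1% at D22 and 31.6% at D25 in RWB, 12.5% at D18, 15.8% at D22 and 43.9% at D28 in SSCd and 8.81% at D18, 13.5% at D25 and 32.5% at D32 in SSCi. The minimum of 50 counts was a mean over all 24 libraries, so genes that fell could pass through their D18 libraries. At the last day Cdt1 averaged 3.55 CPM in RWB, 4.42 CPM in SSCd and 4.33 CPM in SSCi. Chaf1b averaged 4.11 CPM in RWB, 3.60 CPM in SSCd and 3.29 CPM in SSCi. Shares at such low levels are uncertain. The 6339 genes were not matched to the 34 for level or for fall.
For Gins2, a subunit of the GINS complex, the share reflects 2 transcripts that went different ways. The coding transcript Gins2-201 stood at 102 and 61.9 CPM in RWB at D18, 23.3, 42.9 and 22.9 CPM at D22 and 12.2, 11.1 and 16.8 CPM at D25. The retained-intron transcript Gins2-203 stood at 3.26 and 7.64 CPM in RWB at D18, 28.1, 18.4 and 28.1 CPM at D22 and 20.5, 21.6 and 15.4 CPM at D25. The coding form was lower and the retained-intron form higher at D25 than at D18 in every RWB library. In SSCd, Gins2-203 stood at 27.5, 0 and 4.87 CPM at D18 and 25.8, 21.9 and 18.8 CPM at D28, and in SSCi at 21.97 and 0 CPM at D18, 29.2 and 0.732 CPM at D25 and 24.4, 21.2 and 37.4 CPM at D32. These days overlapped for Gins2-203 in SSCd, as 1 library of D18 was already high, and the estimate swung between replicates in SSCi at D18 and D25.
Lig1, level in RWB as a gene, was not level by transcript. The coding transcript Lig1-201 stood at 47.6, 50.8 and 50.2 CPM in RWB at D22 and 22.04, 42.8 and 35.4 CPM at D25, and the coding transcript Lig1-210 stood at 12.9, 7.61 and 7.59 CPM at D22 and 38.4, 16.8 and 19.02 CPM at D25. At the last day Lig1-210 stood at 7.40, 8.68 and 9.09 CPM in SSCd at D28 and 9.16, 10.8 and 6.20 CPM in SSCi at D32, below all 3 RWB libraries of D25. Isoforms of a gene share most of their reads, so these values are estimates whose split is uncertain, and they are given with no test.

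**Figure D5:**
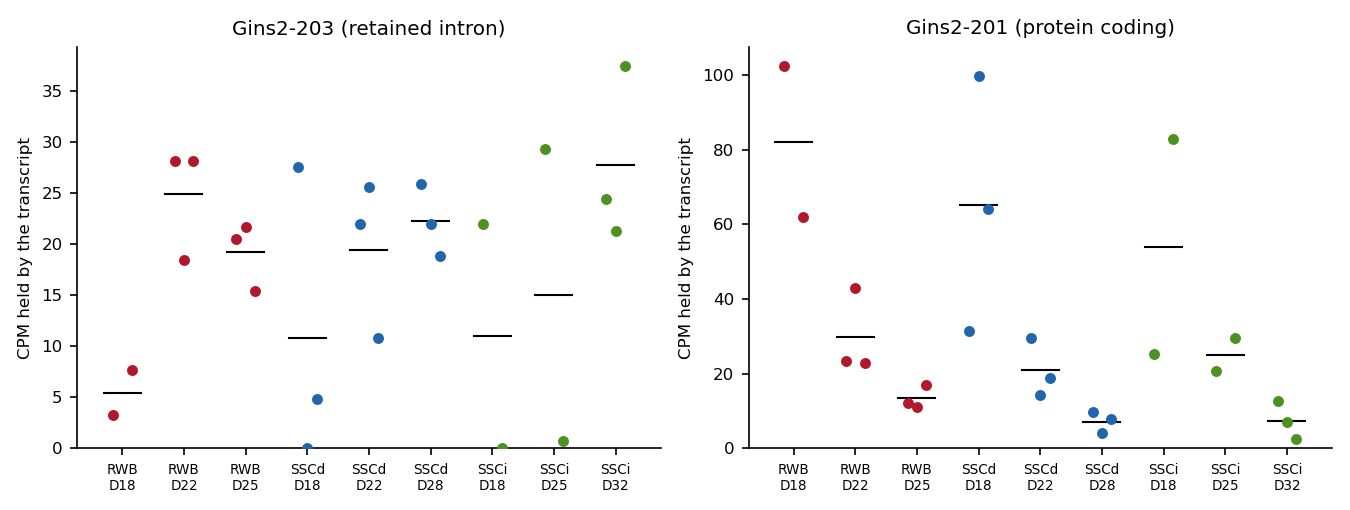
CPM held by the retained-intron transcript Gins2-203 (left) and the coding transcript Gins2-201 (right) in each library (points), with the group mean (bar), by culture and day; the y axes start at 0 and differ in range. The coding transcript is lowest at the last day of each culture, while Gins2-203 lies between 15.4 and 37.4 CPM in all libraries of the last days.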

How the data were processed

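RNA-seq of 24 retinal organoid libraries in 9 groups was used. Per the submitters' processing notes, kallisto 0.42.5 with GRCm38.p5 was run, and edgeR 3.13.9 and limma 3.32.2 are also named there. The authors deposited the resulting estimated counts, per gene and per transcript, which were rounded to whole numbers before testing. Gene symbols came from GENCODE vM21 for 33331 of 33846 gene IDs, and 103635 of 105129 transcripts, with 99.3% of counts, matched that annotation. Per-length levels (TPM) divide transcript counts by annotated length.

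Testing used edgeR 4.0.16 (R 4.3.3, limma 3.58.1): filterByExpr, TMM scaling, 1 mean per group over all libraries, and the robust quasi-likelihood F-test. P-values were adjusted by the Benjamini-Hochberg method over 16792 genes, with a threshold of 0.05, in each of 17 comparisons. SE is the absolute log2 fold change over the square root of F. The procedure was tested on simulated counts of independent genes, some of them changed in RWB D22 only. That simulation had no paired replicates, libraries of high mitochondrial share or admixed tissue. It therefore does not show how stable the calls in these libraries are. Alternatives were another scaling (RLE), no filter, a replicate block, DESeq2 1.42.0, each library left out, the 4 libraries of high mitochondrial share left out, and fits of the compared groups alone. Totals of 13284632 to 21604446 counts per library limit precision mainly for low genes.

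The genes and lists were chosen with earlier results of these data known. Named genes were the largest and the smallest change of each role between SSCd D28 and D18, those called between RWB and SSCd at D22, and any called against most. Genes and transcripts named beyond that rule (such as Mcm3, Lig1, Rpa3, Cdc6, Pcna, Gins2 and Cdt1), the printed promoters, the retained-intron description and the split by mitochondrial share were chosen after values were seen. Replicate numbers in the labels paired RWB D22 with SSCd D22 by a rule that needs 3 same-numbered pairs, each correlating over 0.1 (r = 0.43, 0.20 and 0.43). The numbers did so for 7 pairs of groups in all. Groups of 2 libraries could not meet the rule, whatever their correlation. Both same-numbered pairs correlated over 0.1 for SSCd D18 with SSCi D18, SSCd D18 with SSCi D25, and SSCi D18 with SSCi D25.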

Additional observations from a re-analysis of the deposited data

Results flagged for a closer look

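The change from D18 to D25 differed between RWB and SSCi for 10 of the 48 genes by edgeR's test of the difference (RWB D25 over D18 minus SSCi D25 over D18, log2 scale, Benjamini-Hochberg adjusted), and each of the 10 had the larger fall in RWB. The difference was -2.71 for Cdc6, -2.58 for Mcm3, -2.17 for Rrm2, -2.16 for Chaf1b, -1.99 for Mcm6, -1.99 for Clspn, -1.94 for Chaf1a, -1.91 for Mcm2, -1.91 for Mcm5 and -1.64 for Mcm4. Of all genes, 1.16% had a larger fall in RWB. The D18 groups hold 2 libraries each, and 1 of them, SSCi D18 replicate 1, held the 6743 CPM of mesenchyme markers. Leaving out 1 library gave 0 to 16 genes, and none was called in a fit of the 4 groups alone. Medium and dissection also differ between these cultures and cannot be told apart from rotation.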

How the results depend on the processing

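Over the whole spans, the counts of lower genes kept their side under every alternative run, and leaving out 1 library gave 40 to 48 in RWB, 44 to 47 in SSCd and 38 to 45 in SSCi. For single steps it gave 9 to 29 (RWB D22 over D18), 18 to 26 (RWB D25 over D22), 28 to 41 (SSCd D22 over D18), 16 to 24 (SSCd D28 over D22), 6 to 24 (SSCi D25 over D18) and 18 to 23 (SSCi D32 over D25). Between cultures it gave 0 to 2 (RWB over SSCd, D22), 0 to 1 (RWB over SSCd, D18), 0 to 0 (RWB over SSCi, D18, and SSCd over SSCi, D18), 6 to 15 (RWB over SSCi, D25) and 0 to 5 (RWB D25 over SSCd D28), and for the differences of change 0 to 0 (D22) and 0 to 16 (D25).

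A replicate block gave 5 genes for RWB over SSCd at D22, 5 for RWB D25 over SSCd D28 and 1 (Tyms) for RWB over SSCi at D18, and moved no other count by over 1.5 times. It was paired by the check only for the first of these. Crossing the numbers of RWB and SSCi at D18, added after seeing the data, gave 1. DESeq2 gave 5, 4 and 18 for RWB over SSCd at D22, RWB D25 over SSCd D28 and the D25 difference of change. Without the 4 libraries of high mitochondrial share these were 0, 1 and 6. Fits of the compared groups alone gave 10 for RWB D25 over D22, 16 for SSCi D25 over D18, 1 for RWB over SSCd at D22, 2 for RWB over SSCi at D25, and 0 for both RWB D25 over SSCd D28 and the D25 difference. The causes were not tested, except that fewer libraries enter the last 2 settings. Among the values of called named genes under the alternatives, 1242 kept their call, 171 lost it and 0 changed sign.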
